A study of Mus musculus with 17 samples.

Results

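The small-intestinal epithelium of pups nursed without maternal IgA was compared between day of life 14 and day of life 24, the interval that spans suckling and weaning. The comparison took the 3 libraries of each age whose titles name an IgA -/- dam, 6 of the 17 libraries of the series, and it covered the 13971 genes with a deposited TPM of 1 or more in at least 2 of the 6. All pups, also those of the B6 dams, were Igha -/+ with C57BL/6 as the labelled strain, so each carried 1 null copy of Igha, and pups were nursed either by an IgA -/- dam or by a C57BL/6 (B6) dam. Housing was specific pathogen free, and epithelial cells were sorted as EpCAM+ CD45- Ter119- cells from digested small intestine before RNA extraction and Smart-seq libraries. Litters and dams are not named in the labels, and the p-values therefore reflect only how these libraries vary. Sample descriptions carry 1 date for the day 14 libraries and another for the day 24 libraries, so age and date cannot be told apart, and what the date marks is not stated.

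Milk is taken up by the suckling intestine through an endocytic and lysosomal system in immature enterocytes, and milk immunoglobulin G crosses through the neonatal Fc receptor. At weaning these enterocytes are replaced by cells with adult digestive enzymes, while a richer microbiota, solid food and the pup's own IgA arrive. Milk IgA, made by plasma cells of the dam, normally coats intestinal bacteria in the interval before the pup makes IgA of its own.

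Levels are given as scaled TPM, the deposited length- and depth-scaled transcript abundances divided by a median-of-ratios factor for each library, and changes as log2 differences of scaled TPM plus 1, which understate the change of low genes. A gene was said to rise or fall when limma gave an adjusted p below 0.05 over all 13971 genes. The rescaling mattered: the factors were 1.46 to 1.90 at day 14 and 0.5003 to 0.745 at day 24. On the deposited values the median gene changed by -1.05, against -0.03 after rescaling, and only 132 of 12233 called genes were higher at day 24. All changes are therefore relative to the bulk of genes. The transcript Gm23935 took 40.2% to 61.6% of deposited TPM at day 14 and 53.4% to 56.8% at day 24, and mitochondrial genes took 13.7% to 28.9% and 31.5% to 33.3%. Reads recovered from the TPM steps were 8242877 to 11014159 per library at day 14 and 11569977 to 14007676 at day 24, of which 6006758 to 7209838 and 4018684 to 5172874 lay outside those genes. Day 24 libraries thus held fewer reads on other genes, and 8658 to 10193 genes reached 1 TPM in them against 13212 to 14257 at day 14.

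The sorted identity was checked on marker genes. Epcam, the surface protein used in the sort, stood at 262, 236 and 263 scaled TPM at day 14 and 261, 357 and 305 at day 24. Ptprc, which encodes CD45, was between 0.00723 and 0.0508 at day 14 and between 0.101 and 0.309 at day 24. Igha was listed at 0 in all day 14 libraries and at 0, 0.937 and 0 at day 24. Summed over the 18 leukocyte markers, of which 1 was at 0 in all 6 libraries, the level was 1.95 to 3.41 at day 14 and 10.1 to 38.1 at day 24. The granzyme genes of cytotoxic lymphocytes, Gzma and Gzmb, made up much of that: Gzma was at 0 in the 3 day 14 libraries and at 2.95, 16.96 and 6.65 at day 24. Day 24 replicate 2 was the highest library for the granzymes and for globin (Hbb-bs 42.7 against 0.468 and 0.883). In bulk libraries such as these, fewer cells of a type and less RNA per cell cannot be told apart.

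Of the 13971 genes, 2250 changed between the ages (16.1%), 1371 rising (9.81%) and 879 falling (6.29%), by limma with an adjusted p below 0.05. The counts of the gene lists below stand against these shares over all genes. Changes of at least 1 log2 unit numbered 492 upward and 221 downward, and changes of at least 2 units 104 and 32. The largest rises belonged to antimicrobial lectins, digestive enzymes and detoxifying enzymes, and the largest falls to the endocytic proteins of suckling enterocytes and to gut hormones. Leaving out single libraries lowered the count to 1489 without day 14 replicate 1, 1064 without day 14 replicate 2, 891 without day 14 replicate 3 and 1440 without day 24 replicate 2.

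**Figure D1:**
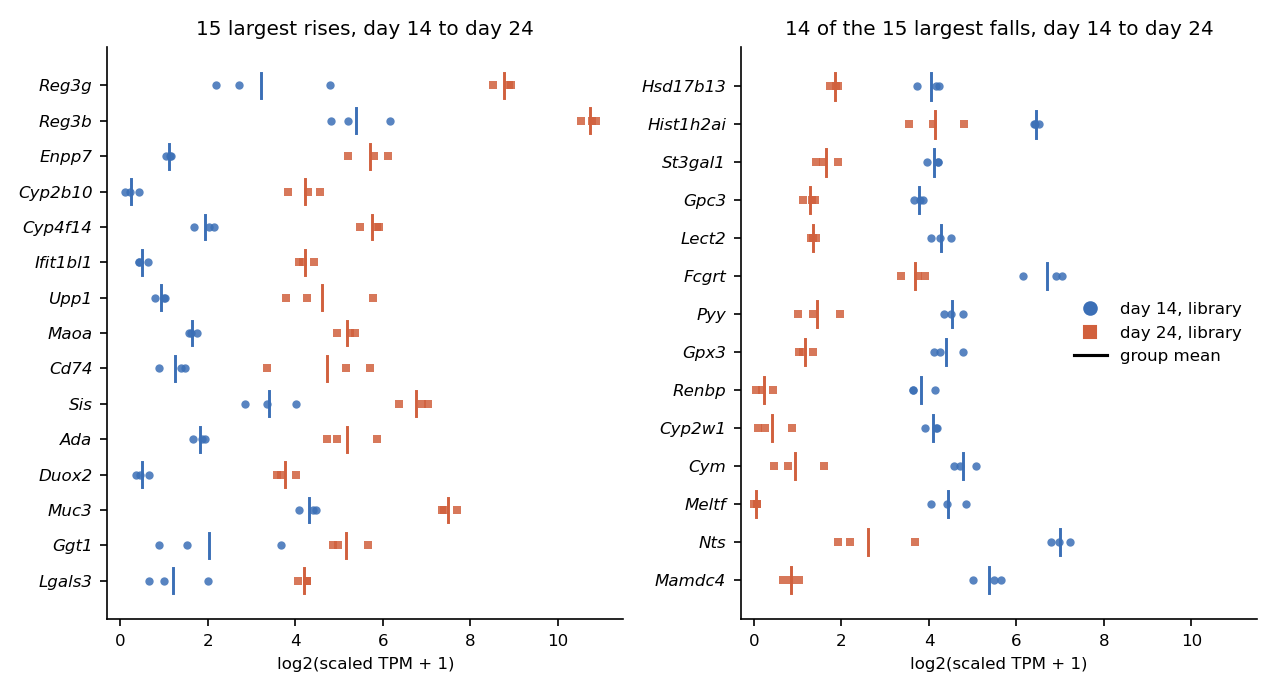
Log2(scaled TPM + 1) on the x axis for the 15 genes that rose most and 14 of the 15 that fell most among called genes averaging at least 10 scaled TPM in the higher group and chosen to have ages that do not overlap; circles are day 14 libraries, squares day 24 libraries and bars group means. Reg3b was at 27.3 to 70.8 at day 14 against 1477 to 1876 at day 24, and Mamdc4 at 30.9 to 49.1 against 0.587 to 1.03.

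The lectin genes Reg3b and Reg3g, whose products bind bacteria in the mucus layer, rose most. Reg3b (chromosome 6, 78370657 to 78373466, GRCm38) stood at 70.8, 35.9 and 27.3 scaled TPM at day 14 and at 1477, 1876 and 1770 at day 24. Reg3g, on the same chromosome, went from 26.7, 5.51 and 3.54 to 470, 486 and 369. The groups were far apart for both, although day 14 replicate 1 was the highest day 14 library for each. Their log2 changes were 5.33 (SE 0.34, adjusted p = 0.00056) and 5.55 (SE 0.63, adjusted p = 0.0036), and both calls held with any 1 library left out. Reads of these related lectins may be shared in counting. Among 14 antimicrobial and oxidant genes tested, 9 rose and none fell, with a median change of 1.86 against -0.03 over all genes. The other 13 of the 27 listed genes were not tested. This and the other gene lists were chosen with earlier results of these data known. In addition, a gene low at 1 age, such as Duox2 or Nos2 at day 14, entered the test only through the other age, which favours a change in that direction. List counts and medians therefore describe the members and are not independent support. Reg3a went from a mean of 2.04 ± 0.53 to 17.9 ± 1.62 (SD, n = 3 each). Duox2, the dual oxidase that releases hydrogen peroxide at the apical surface, was at 0.361, 0.579 and 0.282 and then at 11.1, 15.2 and 11.8, a change of 3.28 (SE 0.15, adjusted p = 0.00021). Nos2, the inducible nitric oxide synthase, rose from 0.272 ± 0.113 to 6.67 ± 1.68, and Il18, a cytokine made by epithelial cells, from 2.18 ± 0.412 to 14.27 ± 2.34. Pigr, the receptor that carries IgA across the epithelium, rose from 220, 200 and 203 to 549, 439 and 423, a change of 1.17 (SE 0.16, adjusted p = 0.0060).

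Antigen presentation was examined in its class I and class II genes. Of 12 class I presentation genes, 9 rose and none fell, with a median change of 1.18. H2-D1, a class I heavy chain, was at 29.5, 21.8 and 24.0 at day 14 and 81.7, 94.2 and 68.0 at day 24 (change 1.65, SE 0.17, adjusted p = 0.0028). Tap1, a subunit of the peptide transporter of the endoplasmic reticulum, rose from 1.63 ± 0.125 to 7.63 ± 1.08. The immunoproteasome subunits Psmb8 and Psmb9 rose from 6.84 ± 1.33 to 20.4 ± 4.11 and from 1.53 ± 0.252 to 4.45 ± 0.259. B2m, the light chain, was not called, at 156, 81.3 and 127 and then 158, 217 and 176. Of 6 class II presentation genes tested, 5 rose. Cd74, the invariant chain, was at 1.77, 0.845 and 1.63 and then 34.6, 51.0 and 9.21, a change of 3.49 (SE 0.57, adjusted p = 0.011). H2-Eb1, a class II beta chain, went from 0.360, 0.279 and 0.739 to 10.02, 13.8 and 3.76. Day 24 replicate 3 was the lowest and replicate 2 the highest day 24 library for both. Class II genes are also expressed by leukocytes. Of the 18 leukocyte markers 4 were tested, and 2 rose, Gzma and Gzmb, which are genes of cytotoxic lymphocytes. The other 14 were too low to test. The part of leukocytes in the class II result was not tested. The class II count was 2 to 5 with 1 library left out, being 3 without day 14 replicate 1, 2 without replicate 2 or 3 of that age, and 3 without day 24 replicate 1 or 2, and limma-voom on recovered reads, which tested 1 of these genes, called 0.

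Of 18 tested interferon-stimulated genes, 15 rose and none fell, with a median change of 1.22. Ifit1bl1, of the interferon-induced IFIT family and not a member of that list, was at 0.348, 0.553 and 0.336 scaled TPM and then at 17.03, 16.0 and 20.5. Its change was 3.73 (SE 0.13, adjusted p = 0.00017). Zbp1, a sensor of unusual nucleic acids, rose from 2.21, 1.12 and 1.38 to 11.004, 11.7 and 9.91, and Oasl2, of the oligoadenylate synthetase family, from 2.34, 1.27 and 2.17 to 14.96, 11.2 and 9.44. Igtp, a GTPase of cell-autonomous defence, went from 1.63, 0.851 and 1.70 to 9.96, 9.84 and 6.33. The libraries of the 2 ages did not overlap for any of these 4 genes. Separated ages were a condition for naming Ifit1bl1, and list members were named partly by low p, so this adds no separate support. Over all tested genes, 19.8% were separated in the rising direction and 19.4% in the falling direction. Irf7, a transcription factor of the pathway, rose from 4.27 ± 0.83 to 15.7 ± 2.89 and Stat2, which relays interferon signals to DNA, from 2.90 ± 0.279 to 6.16 ± 0.404. Irf9, the partner of Stat2, was at 2.96 ± 0.535 and 4.52 ± 0.385 with an adjusted p of 0.050, and was not called. With any 1 library left out 10 to 14 list members rose. The count was 8 in the fit with the B6 dam libraries, and on deposited values 6 rose and 3 fell. A further 6 of the 24 listed genes were not tested. Mean levels at day 42 were 1.70 for Igtp, 1.28 for Zbp1 and 2.92 for Ifit1bl1.

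Promoter sequences of Ifit1bl1 and 4 interferon-stimulated genes of the list are shown because these genes rose together. Each is the 250 bases before the RefSeq start on GRCm38.p6, written 5′ to 3′ along the gene. Capitals mark matches, on either strand, to the interferon-stimulated response element taken as GAAA, any 2 bases and GAAA. Ifit1bl1 lies on the minus strand (chr19:34601969-34602218), Igtp on the plus strand (chr11:58199306-58199555), Oas1g on the minus strand (chr5:120887614-120887863), Stat2 on the plus strand (chr10:128270248-128270497) and Ifit1 on the plus strand (chr19:34640639-34640888).
Ifit1bl1: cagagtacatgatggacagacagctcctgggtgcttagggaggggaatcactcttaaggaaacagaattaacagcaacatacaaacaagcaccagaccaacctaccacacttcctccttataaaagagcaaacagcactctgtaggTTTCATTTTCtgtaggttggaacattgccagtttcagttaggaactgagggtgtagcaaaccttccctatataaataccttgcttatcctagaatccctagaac
Igtp: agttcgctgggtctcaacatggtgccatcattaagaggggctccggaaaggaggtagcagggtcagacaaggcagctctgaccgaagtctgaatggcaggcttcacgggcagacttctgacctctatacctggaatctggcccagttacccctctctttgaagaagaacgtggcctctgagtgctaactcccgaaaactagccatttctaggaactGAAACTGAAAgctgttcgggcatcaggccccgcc
Oas1g: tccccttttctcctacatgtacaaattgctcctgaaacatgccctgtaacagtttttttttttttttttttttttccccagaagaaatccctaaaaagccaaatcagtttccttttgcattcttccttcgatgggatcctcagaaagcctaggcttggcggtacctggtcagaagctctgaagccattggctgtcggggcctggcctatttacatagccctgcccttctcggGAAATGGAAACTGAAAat
Stat2: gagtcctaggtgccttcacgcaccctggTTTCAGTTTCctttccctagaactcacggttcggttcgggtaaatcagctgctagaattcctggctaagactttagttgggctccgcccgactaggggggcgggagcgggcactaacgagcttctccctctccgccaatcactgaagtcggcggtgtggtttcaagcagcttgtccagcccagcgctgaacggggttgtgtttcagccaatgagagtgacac
Ifit1: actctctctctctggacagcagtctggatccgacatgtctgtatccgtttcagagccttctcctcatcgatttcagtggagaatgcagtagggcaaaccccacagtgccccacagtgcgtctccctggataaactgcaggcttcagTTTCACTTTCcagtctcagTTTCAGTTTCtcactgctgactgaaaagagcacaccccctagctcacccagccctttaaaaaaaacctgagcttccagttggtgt
The match lay 104 to 95 bases before the start in Ifit1bl1, 34 to 25 in Igtp and 222 to 213 in Stat2, and Oas1g and Ifit1 held 2 matches each. In Oas1g the pair overlaps in 1 run of capitals. This motif was present in 8 of the 14 interferon-stimulated genes with a promoter entry, in 4.54% of the 992 rising genes with one, in 2.39% of the 502 falling genes, and in 2.59% of all 8689 tested genes. Oas1g rose from 0.234, 0.311 and 0.0701 to 2.00, 2.18 and 2.36. Ifit1 rose from 7.82, 5.21 and 8.85 to 21.4, 13.6 and 14.19, a call that was lost without any 1 day 14 library or without day 24 replicate 3. The matches are a description of these windows and not evidence of binding.

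Of 13 tested genes of innate sensing and NF-kB regulation, 8 rose and 1 fell. Tnfaip3, which encodes the NF-kB inhibitor A20, rose from 0.753 ± 0.0466 to 2.17 ± 0.342, and Nfkbia, which encodes another, from 10.97 ± 0.97 to 20.3 ± 1.46. Tlr5, the flagellin receptor, was the member that fell, from 1.21, 0.787 and 0.810 to 0.0751, 0.204 and 0.142 (change -0.76, SE 0.15, adjusted p = 0.019), a call lost without day 14 replicate 3. Without that library 5 members of the list rose.

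**Figure D2:**
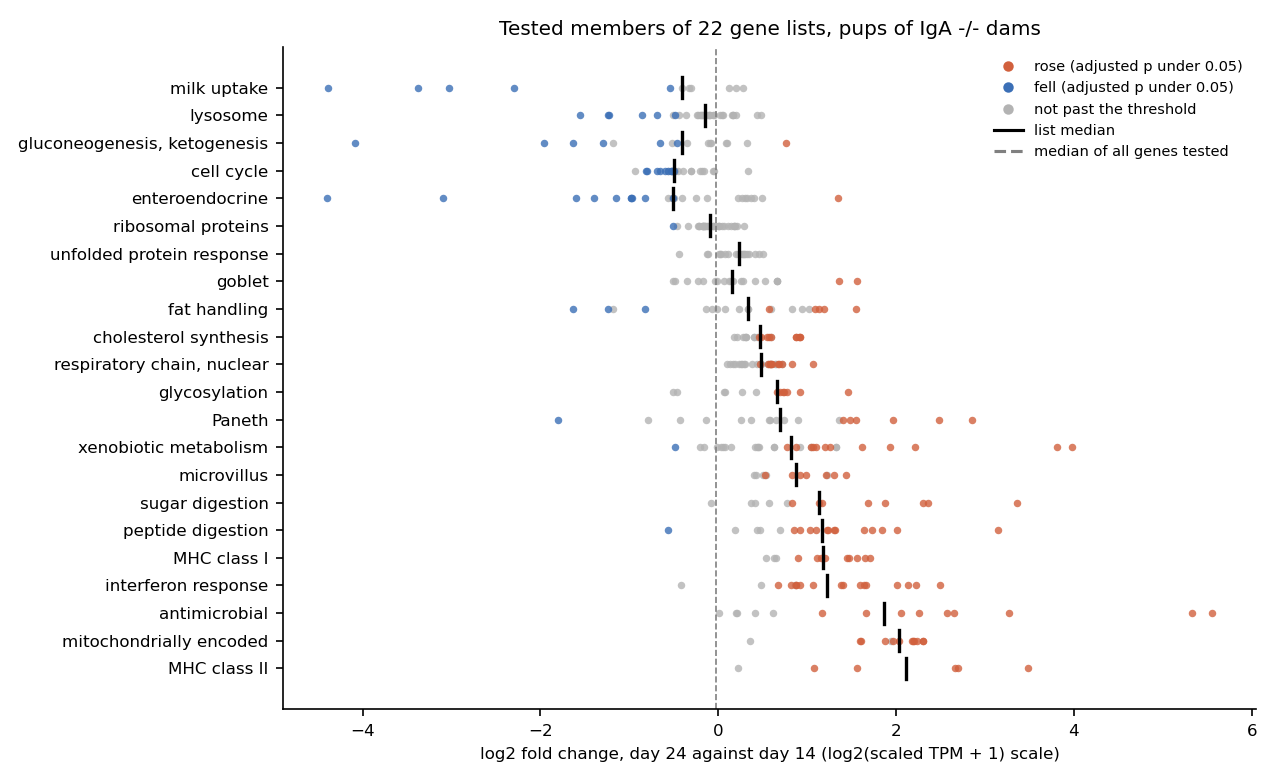
Log2 change from day 14 to day 24 of each tested member of 22 gene lists, with called members in colour, other members in grey and the list median as a bar; the dashed line is the median of all genes. Antimicrobial (median 1.86), interferon (1.22) and mitochondrially encoded (2.03) members lie mostly to the right of 0, and cell cycle (-0.50) and enteroendocrine (-0.51) members mostly to the left.

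Of 11 tested genes of milk uptake in suckling enterocytes, 5 fell, none rose and 6 were not called, with a median change of -0.40. Mamdc4, which is not a member of that list and encodes endotubin of the apical tubules that take up milk (chromosome 2, 25563115 to 25574845), was at 30.9, 43.6 and 49.1 scaled TPM at day 14 and at 1.03, 0.587 and 0.795 at day 24, a change of -4.53 (SE 0.19, adjusted p = 0.00020). Meltf, the iron-binding protein melanotransferrin, went from 15.5, 20.2 and 27.7 to 0.0435, 0 and 0.0469 (change -4.39, SE 0.20). Folr1, a folate receptor, fell from 8.40, 9.45 and 11.9 to 0.0783, 0.0473 and 0. Fcgrt, the neonatal Fc receptor that carries milk IgG, fell from 131, 70.4 and 119 to 9.32, 14.0 and 12.4 (change -3.03, SE 0.26, adjusted p = 0.0016). Dab2, an endocytic adaptor, fell from 4.37 ± 1.70 to 0.0587 ± 0.034. Neither Cubn nor Amn, which form the cubilin receptor, was called: Cubn was at 10.4, 4.96 and 7.07 and then 5.90, 7.05 and 4.17, and Amn at 8.62, 10.7 and 10.3 and then 12.2, 12.3 and 9.99. The fifth member that fell was Pllp, plasmolipin, from 1.49, 1.46 and 1.34 to 0.690, 0.574 and 0.744 (change -0.54, SE 0.11, adjusted p = 0.020). The libraries of the ages overlapped for Cubn and Amn. For 7 of the 11 tested members, among them the 5 that fell, all day 24 libraries lay below those of day 14. Over all tested genes this held for 19.4%.

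Of 30 tested genes on the lysosomal list, 6 fell, none rose and 24 were not called, with a median of -0.15. Npl, on that list but a cytosolic enzyme of sialic acid breakdown, went from 5.18, 6.41 and 8.46 to 1.70, 1.17 and 1.90 (change -1.56, SE 0.19, adjusted p = 0.0042). Ctsl, a cysteine protease, fell from 3.58, 3.61 and 5.401 to 1.27, 1.16 and 1.08. Glb1, the lysosomal beta-galactosidase, fell from 7.96 ± 0.38 to 3.97 ± 0.621. Cathepsins B and D were not called, Ctsb being at 20.8 ± 3.03 and 19.3 ± 3.19 and Ctsd at 6.23 ± 0.838 and 8.83 ± 1.89. For the IgA -/- dam, no member of the list passed in a fit that also held the 5 B6 dam libraries. In that same fit 10 of the 30 fell with the B6 dam, median -0.74, and the difference between the dams passed for none.

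Of 10 other tested genes known from the neonatal intestine, 4 fell, 2 rose and 4 were not called, with a median change of 0.14. Cym, the milk-clotting protease chymosin, went from 25.2, 22.9 and 32.6 to 0.364, 0.703 and 2.04. Gpx3, a secreted glutathione peroxidase, went from 18.0, 16.4 and 26.3 to 1.04, 1.56 and 1.18. Bcl2l15 rose from 0.830, 0.658 and 0.907 to 5.2001, 5.65 and 5.46, and Slc5a4a, a member of the sodium-glucose transporter family, from 0.267, 0.0966 and 0.0532 to 2.54, 3.01 and 2.83. Without day 14 replicate 3 only 2 of these genes fell. Among transcription factors of intestinal maturation, Prdm1, which encodes Blimp-1 and marks suckling epithelium, fell from 3.07, 3.37 and 4.53 to 0.322, 0.448 and 0.521 (change -1.69, SE 0.14, adjusted p = 0.0015). Klf4 and Hnf4g, factors of differentiated epithelium, rose from 10.9 ± 1.82 to 27.5 ± 1.64 and from 22.7 ± 4.82 to 54.0 ± 3.90. The caudal factor Cdx2 was at 27.5 ± 3.29 and 27.4 ± 0.447. In all, 5 of 22 regulators rose and 2 fell, and 3 rose without day 14 replicate 2 or replicate 3.

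Of 16 tested genes of glucose and ketone synthesis, both active in the suckling gut, 6 fell and 1 rose, median -0.41. Pck1, the cytosolic enzyme that commits carbon to glucose synthesis, went from 83.2, 44.0 and 56.8 to 18.6, 15.5 and 10.5 (change -1.96, SE 0.29, adjusted p = 0.0078), and Fbp1, fructose-bisphosphatase, from 28.6, 16.6 and 22.7 to 5.92, 6.45 and 7.002. Cpt1a, which admits fatty acids to mitochondria, fell from 31.0 ± 3.35 to 19.2 ± 0.762, a call lost without day 14 replicate 3; without that library 3 members fell. Fbp2, the muscle form, was not called (72.2 ± 6.89 and 66.6 ± 8.91). Of 11 genes of arginine metabolism and the urea cycle, 3 rose, 2 fell and 6 were not called. Ass1, the enzyme that joins citrulline to aspartate and serves arginine synthesis from milk precursors, fell from 7.27, 5.78 and 8.52 to 1.04, 1.08 and 1.08 (change -1.97, SE 0.14). Arg2, a mitochondrial arginase, rose from 7.51, 2.59 and 3.71 to 26.9, 32.3 and 33.9 (change 2.60, SE 0.31, adjusted p = 0.0040). Asl, Otc and Cps1, of the same pathway, were not called (changes -0.05, 0.42 and -0.42). The count of rises was 1 without day 14 replicate 2 or replicate 3, and the count of falls was 1 without any 1 day 14 library or without day 24 replicate 3.

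Of 13 genes of sugar digestion and uptake, 8 rose and none fell, median 1.13. Sis, sucrase-isomaltase, whose onset marks weaning (chromosome 3, 72888557 to 72967863), was at 15.1, 6.18 and 9.21 and then at 118, 130 and 82.1, a change of 3.37 (SE 0.32, adjusted p = 0.0021). Treh, trehalase, went from 8.80, 3.30 and 3.82 to 33.0, 26.2 and 25.7, and Mgam, maltase-glucoamylase, from 40.7, 28.1 and 28.0 to 130, 126 and 102. Lct, lactase, which splits milk sugar, was not called: its levels were 86.3, 42.9 and 63.4 at day 14 and 66.2, 59.4 and 50.8 at day 24, and overlapped. At day 42 Lct averaged 7.74. The day 24 range of Lct thus lay inside its day 14 range, while the mean of Sis was 10.82-fold higher at day 24. Without day 14 replicate 3 the count of rising sugar genes was 5, and in the fit with the B6 dam libraries it was 3.

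The promoter of Sis is printed because it is a known target of the CDX factors. Its 250 bases before the RefSeq start, minus strand, lie at chr3:72967864-72968113 (GRCm38.p6), and capitals mark a match to TTTATTG on the opposite strand, 52 to 46 bases before the start.
Sis: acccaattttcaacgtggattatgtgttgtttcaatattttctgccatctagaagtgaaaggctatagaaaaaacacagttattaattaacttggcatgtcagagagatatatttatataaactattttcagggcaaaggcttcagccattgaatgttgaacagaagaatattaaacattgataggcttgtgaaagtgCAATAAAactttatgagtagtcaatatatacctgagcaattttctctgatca
That motif was found in 2.5% of all tested promoters and in 3.23% of those of rising genes, while the factor genes Cdx1 and Cdx2 were not called.

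Of 18 genes of peptide digestion, 13 rose and 1 fell, median 1.16. Dpp4, a dipeptidyl peptidase of the brush border, was at 11.04, 10.6 and 10.9 and then 30.7, 29.3 and 25.7 (change 1.32, SE 0.11, adjusted p = 0.0013). Enpep, an aminopeptidase, rose from 14.5 ± 0.843 to 54.9 ± 10.6, Anpep, aminopeptidase N, from 94.4 ± 14.0 to 298 ± 55.2, and Slc15a1, the dipeptide carrier, from 4.25 ± 2.01 to 15.7 ± 2.42. Of the 2 chains of meprin, Mep1b rose from 28.1, 15.2 and 18.0 to 94.0, 92.0 and 64.9 and Mep1a fell from 13.2, 9.49 and 12.97 to 8.28, 7.27 and 7.44 (change -0.56, SE 0.14, adjusted p = 0.044). The call of Mep1a was lost without day 14 replicate 1 or 3, without day 24 replicate 2 or 3, and in the fits of 11 and of 17 libraries. The count of rising peptide genes was 6 without day 14 replicate 3, 7 without day 24 replicate 2 and 0 in the fit with the B6 dam libraries.

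Fat handling was mixed, with 5 of 20 genes rising and 3 falling. Enpp7, the intestinal sphingomyelinase (chromosome 11, 118988188 to 118993221), stood outside that list and rose from 1.18, 1.06 and 1.25 to 68.9, 54.6 and 35.8 (change 4.596, SE 0.23, adjusted p = 0.00025). Npc1l1, the cholesterol uptake protein, rose from 14.9, 9.20 and 12.6 to 37.5, 42.9 and 31.8. The 2 enzymes that complete triglyceride went opposite ways: Dgat1 rose from 19.1, 16.2 and 16.8 to 43.4, 41.5 and 37.8, and Dgat2 fell from 38.1, 22.4 and 32.4 to 9.59, 10.1 and 7.79. The apolipoprotein gene Apoa4 was not called, with 1464, 674 and 1183 and then 759, 371 and 352. The 5 rising fat genes became 2 without day 14 replicate 2, day 14 replicate 3 or day 24 replicate 2, 3 without day 24 replicate 3 and 8 without day 14 replicate 1. In the fit with the B6 dam libraries none rose or fell with the IgA -/- dam. Of 8 tested bile acid genes, 2 rose, 1 fell and 5 were not called, median -0.02. Fabp6, the ileal bile acid binding protein, rose from 12.3, 11.9 and 7.65 to 103, 74.9 and 55.4. Fgf15, the ileal hormone that restrains bile acid synthesis, fell from 1.79, 1.10 and 2.83 to 0.0588, 0.320 and 0.317, a call lost without day 14 replicate 1.

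Of 20 genes of cholesterol synthesis, 10 rose and none fell, median 0.47. Cyp51, lanosterol demethylase, rose from 3.24, 2.80 and 3.44 to 5.95, 8.32 and 6.41, and Mvk, mevalonate kinase, from 1.87, 1.98 and 1.59 to 5.11, 4.02 and 3.48. Day 24 replicate 2 was the highest library for Cyp51 and replicate 1 for Mvk. Without day 14 replicate 2 the count was 4, and without day 14 replicate 3 it was 2. Promoters of 3 of them are shown for a motif most of the list shares: capitals mark CCAAT on either strand in the 250 bases before the RefSeq start on GRCm38.p6. Cyp51 lies on the minus strand (chr5:4104698-4104947), Msmo1, a sterol oxidase, on the minus strand (chr8:64733579-64733828) and Mvk on the plus strand (chr5:114444019-114444268).
Cyp51: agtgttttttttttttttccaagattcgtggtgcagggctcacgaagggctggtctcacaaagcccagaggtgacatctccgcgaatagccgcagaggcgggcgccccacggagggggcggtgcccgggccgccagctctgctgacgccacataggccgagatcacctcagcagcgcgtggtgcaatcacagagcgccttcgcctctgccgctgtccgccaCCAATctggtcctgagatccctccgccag
Msmo1: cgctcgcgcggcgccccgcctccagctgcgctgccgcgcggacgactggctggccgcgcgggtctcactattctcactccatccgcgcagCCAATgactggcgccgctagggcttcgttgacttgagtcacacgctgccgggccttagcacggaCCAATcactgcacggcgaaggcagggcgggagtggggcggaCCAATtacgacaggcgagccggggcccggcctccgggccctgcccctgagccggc
Mvk: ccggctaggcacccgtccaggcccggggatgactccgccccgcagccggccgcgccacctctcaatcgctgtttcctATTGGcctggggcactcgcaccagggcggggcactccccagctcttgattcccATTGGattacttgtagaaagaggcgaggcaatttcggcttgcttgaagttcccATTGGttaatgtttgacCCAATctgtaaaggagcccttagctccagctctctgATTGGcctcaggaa
CCAAT was found once in Cyp51, 3 times in Msmo1 and 5 times in Mvk. It was present in 11 of the 12 list members with a promoter entry, against 36.7% of all tested promoters. The share was 37.0% for rising genes and 42.8% for falling genes, so the motif was not particular to genes that rose. It was also in 16 of 21 promoters of the cell cycle list, in which no gene rose. Msmo1 rose from 2.01, 1.65 and 1.78 to 4.21, 5.24 and 3.25, a call lost without day 14 replicate 2 or replicate 3.

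Among 30 genes that metabolise foreign and fatty compounds, 12 rose and 1 fell, median 0.82. Cyp2b10, a cytochrome P450 induced through the receptor CAR, was at 0.346, 0.157 and 0.0777 and then at 22.5, 13.2 and 18.7, a change of 3.98 (SE 0.20, adjusted p = 0.00025). Cyp4f14, a fatty acid hydroxylase, went from 3.39, 2.20 and 3.07 to 59.2, 57.7 and 43.8 (change 3.81, SE 0.17). Cyp2b10 fell back to an average of 1.24 at day 42, and Cyp4f14 was then at 22.9. Cyp2w1, a P450 outside this list, fell from 14.13, 16.97 and 17.05 to 0.830, 0.0716 and 0.192 (change -3.68, SE 0.21, adjusted p = 0.00038). The count of 12 was 7 without day 14 replicate 2, 6 without day 14 replicate 3 and 7 without day 24 replicate 2, and 3 in the fit with the B6 dam libraries. Of 9 genes of purine breakdown and salvage, 5 rose and none fell. Ada, adenosine deaminase, went from 2.83, 2.64 and 2.19 to 30.0, 25.2 and 57.8, and Xdh, xanthine dehydrogenase, from 24.33, 10.03 and 14.5 to 86.2, 79.1 and 72.5.

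Muc3, a mucin of the microvillus membrane, rose from 21.1, 15.9 and 20.3 to 207, 162 and 168 (change 3.16, SE 0.16, adjusted p = 0.00027). Of 12 microvillus genes, a list without Muc3, 7 rose and none fell, median 0.88. Vil1, the actin bundler villin, was at 94.6, 80.7 and 87.7 and then 238, 221 and 197, and Myo1a, the motor of the brush border, rose from 65.0 ± 10.9 to 179 ± 43.1. The count was 4 without day 14 replicate 2 and 3 without day 14 replicate 3, and 1 in the fit with the B6 dam libraries. Of 13 glycosylation genes, 7 rose and none fell, median 0.67. St3gal4, a sialyltransferase, rose from 33.7, 25.3 and 28.8 to 76.1, 94.3 and 75.4, while St3gal1, a sialyltransferase outside the list, fell from 17.4, 14.6 and 17.5 to 1.98, 2.77 and 1.69. Fut2, which adds the terminal fucose used by gut bacteria, rose from 0.843 ± 0.198 to 2.19 ± 0.688, but its call was lost when any library other than day 24 replicate 3 was left out. The glycosylation count was 4 without day 14 replicate 2 and 3 without day 14 replicate 3.

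**Figure D3:**
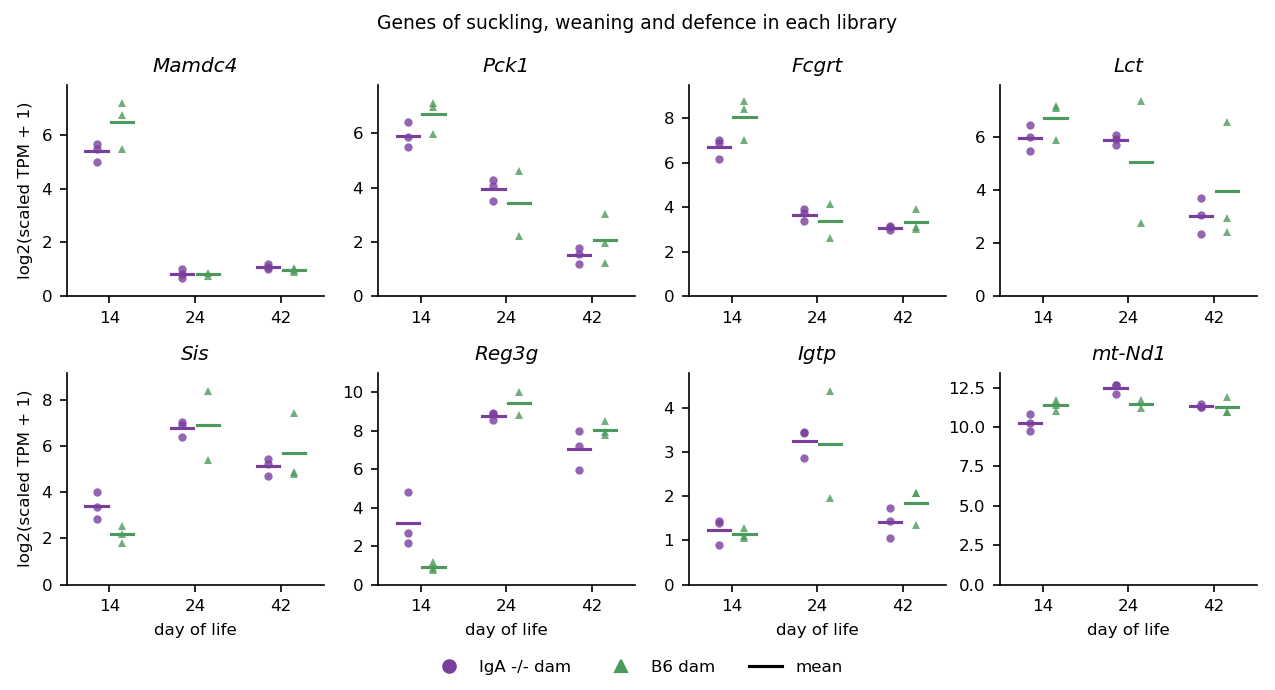
Log2(scaled TPM + 1) of 8 genes in the 17 libraries against day of life; circles are libraries of the IgA -/- dam, triangles those of the B6 dam, and bars group means. Lct at day 24 (50.8 to 66.2 with the IgA -/- dam) still overlaps day 14, whereas Mamdc4 and Pck1 are lower and Sis and Reg3g higher.

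Secretory lineages did not move as 1 block. Of 18 Paneth cell genes tested, 6 rose and 1 fell. Mptx2, a pentraxin of Paneth cells, went from 13.5, 10.7 and 14.6 to 68.7, 114 and 56.4 (change 2.48, SE 0.27, adjusted p = 0.0031), and its neighbour in the family Mptx1 fell from 12.0, 6.79 and 9.24 to 1.58, 2.72 and 1.58. AY761184, a defensin-related gene, rose from 54.2 ± 4.32 to 223 ± 77.6. Lyz1, the Paneth lysozyme, rose from 267, 169 and 193 to 525, 912 and 343 (adjusted p = 0.048), and its call was lost when any library but day 24 replicate 3 was left out. Defa21 and Defa22, alpha-defensins, were not called, the first at 142, 107 and 66.1 and then 76.6, 136 and 38.9. Day 24 replicate 2 was the highest library for each of these Paneth genes at that age, and the summed Paneth level was 2142 to 3343 at day 14 and 3307 to 8082 at day 24. The count of rising genes was 3 without any 1 day 14 library and 4 without day 24 replicate 2. Defensin and pentraxin genes are near-identical copies, so their reads may be split. Goblet cell genes gave 2 rises among 20, close to the 9.81% that rose over all genes. Muc2, the secreted mucin, was not called at 206, 143 and 142 and then 256, 321 and 152. Retnlb, a goblet antimicrobial protein, was at 0 in the 3 day 14 libraries and at 3.10, 2.19 and 0.976 at day 24. Of 12 tuft cell genes 3 rose, among them Plcg2, a phospholipase of taste-like signalling, from 2.92, 3.26 and 2.93 to 8.05, 8.44 and 8.34.

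Of 24 tested enteroendocrine genes, which encode gut hormones, their processing proteins and lineage factors, 10 fell, 1 rose and 13 were not called, median -0.51, and their summed level dropped from 1047 to 1280 at day 14 to 438 to 626 at day 24. Nts, neurotensin (chromosome 10, 102481756 to 102490486), was at 124, 110 and 149 and then at 2.81, 11.8 and 3.57, a change of -4.40 (SE 0.44, adjusted p = 0.0025). Pyy, peptide YY, went from 26.3, 21.6 and 19.3 to 0.997, 2.93 and 1.54 (change -3.10, SE 0.25, adjusted p = 0.0013). Both of these hormones are made mainly by distal L and N cells. Chga, the granule protein chromogranin A, went from 133, 124 and 136 to 60.3, 37.1 and 34.0, and Sct, secretin, from 38.8, 33.8 and 32.8 to 12.7, 13.6 and 11.9. Gip, the incretin of proximal K cells, fell from 249, 167 and 208 to 100, 140 and 79.8 (change -0.98, SE 0.25, adjusted p = 0.042), a call that held only without day 24 replicate 2 among the 6 omissions. Gcg, proglucagon, was at 23.4, 25.2 and 23.6 and then 17.1, 25.5 and 18.6 and was not called. Neurog3, the transcription factor that commits progenitors to this lineage, rose from 0.873, 1.30 and 1.08 to 5.21, 3.77 and 3.94 (change 1.34, SE 0.14, adjusted p = 0.0029). It was the 1 member that rose. The count of falling genes was 5 without day 14 replicate 1 or replicate 2, 4 without day 14 replicate 3 and 7 without day 24 replicate 2.

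With the B6 dam 19 of the 24 enteroendocrine genes rose and none fell by the same test in the fit of 11 libraries, in which 1261 of 14638 genes changed (8.61%), 698 rising (4.77%) and 563 falling (3.85%). The difference between the dams in the change with age was tested as an interaction. It passed for 37 of 14638 genes (0.253%), 5 with a larger value under the IgA -/- dam (0.0342%) and 32 with a smaller one (0.219%), and 12 of the 24 enteroendocrine genes were among the 32. For Gip the difference was -4.10 (adjusted p = 0.0032): B6 dam levels averaged 36.4 at day 14, 323 at day 24 and 311 at day 42, against 208, 107 and 509 with the IgA -/- dam. Gcg differed by -3.43 (adjusted p = 0.0032), with B6 dam means of 5.44 and 59.3. For Chga, Sct and Pyy the differences were -2.92, -3.33 and -3.89 (adjusted p = 0.0070, 0.012 and 0.0088). The day 14 levels lay further apart than those of day 24: Chga averaged 131 with the IgA -/- dam and 19.9 with the B6 dam at day 14, and 43.8 and 50.9 at day 24. The 4 groups of this test carry 4 different dates in the labels, so dam, age and date cannot be told apart in it. The B6 dam has 2 day 24 libraries, and they differ from each other in weaning genes (Sis 40.7 and 336). The count of 37 was 15 without B6 dam day 14 replicate 1, 60 without its replicate 3, 65 and 69 without replicates 1 and 2 of B6 dam day 24, 18, 20 and 19 without replicates 1, 2 and 3 of IgA -/- dam day 14, and 18 without IgA -/- dam day 24 replicate 3.

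**Figure D4:**
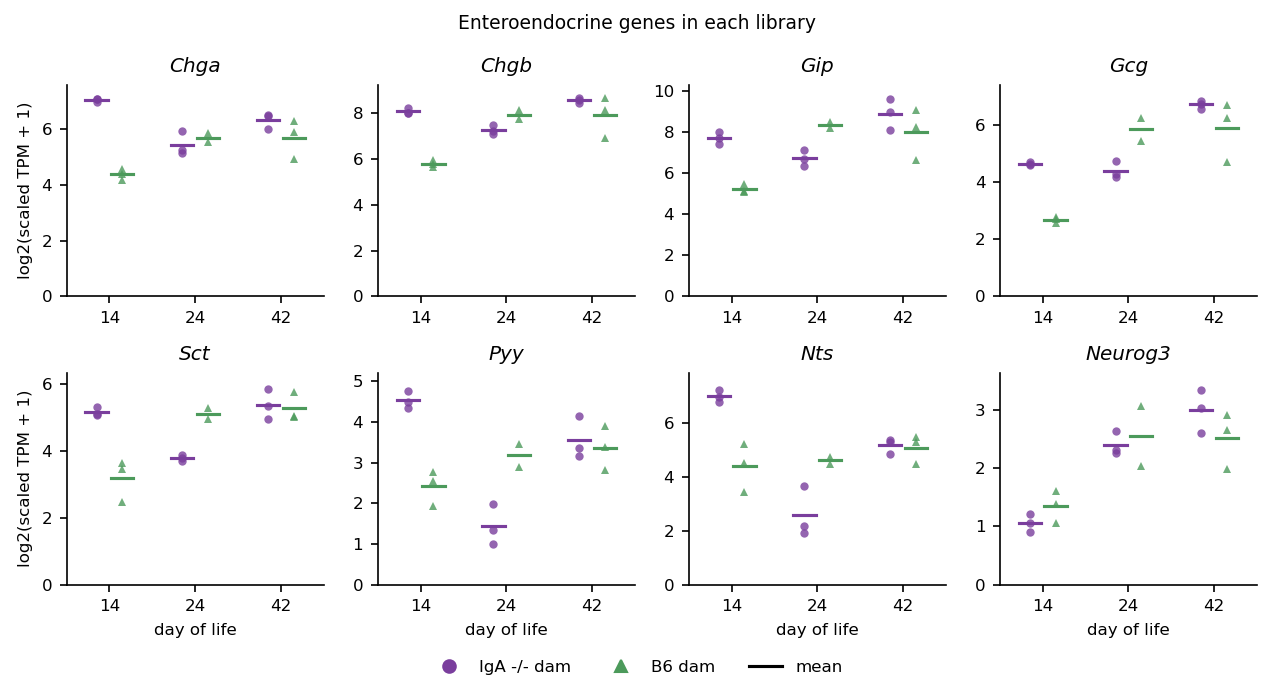
Log2(scaled TPM + 1) of 8 enteroendocrine genes against day of life; circles are libraries of the IgA -/- dam, triangles those of the B6 dam, and bars group means. From day 14 to day 24 Gip, Sct and Chga go down with the IgA -/- dam (Gip mean 208 to 107) and up with the B6 dam (36.4 to 323).

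Across all 13971 genes the log2 changes with the 2 dams correlated with a Pearson r of 0.681 and a Spearman rho of 0.627. This is a description across genes, which are not independent. The comparisons share no library, but the B6 dam calls came from the joint fit of both dams, in which variance was estimated together. The IgA -/- dam calls came from the fit of its own libraries, with 2250 genes called against 1410 in the joint fit. The shares below therefore set calls of unlike fits side by side. Of the 1371 genes that rose with the IgA -/- dam, 1310 had a positive change with the B6 dam and 390 were called there, 28.4% of the first list and 57.6% of the 677 that rose with the B6 dam. Of the 879 that fell, 775 were negative and 298 called, 33.9% and 56.2% of the respective lists. In the other direction, 1 rising and 19 falling genes were called with the opposite sign. Meltf and Gpx3 averaged 125 and 307 at day 14 with the B6 dam against 21.1 and 20.2 with the IgA -/- dam, and with the B6 dam they reached 0.0549 and 2.81 at day 24; their differences of 2.26 and 2.85 did not pass (adjusted p = 0.38 and 0.27). Reg3b differed by -4.42 (adjusted p = 0.018), and its day 14 mean was 2.27 under the B6 dam against 44.7 under the IgA -/- dam, while day 24 means were 3034 and 1708.

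**Figure D5:**
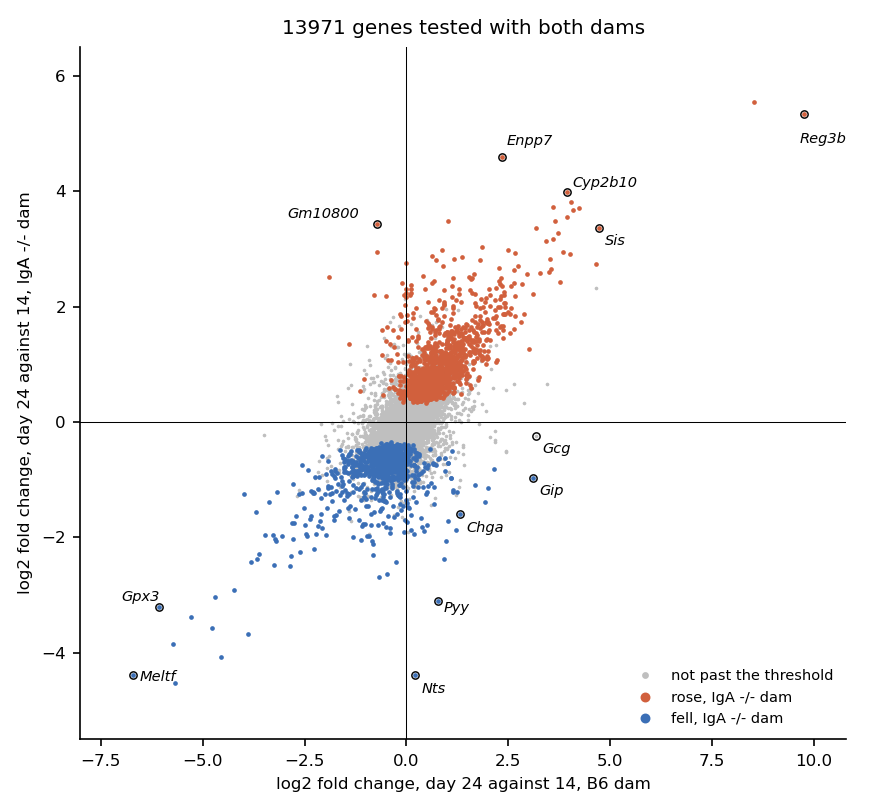
Log2 change from day 14 to day 24 with the IgA -/- dam (y axis) against that with the B6 dam (x axis) for each of 13971 genes, coloured by the call with the IgA -/- dam; circled genes are named. The 2 changes correlate (r = 0.681), and Gcg, Gip, Chga, Pyy and Nts lie below 0 on the y axis and above 0 on the x axis.

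Of 26 tested genes of cell cycle and DNA replication, 9 fell, none rose and 17 were not called, median -0.50. Tyms, thymidylate synthase, went from 4.49, 4.42 and 5.21 to 1.83, 2.80 and 2.28 (change -0.80, SE 0.13, adjusted p = 0.012), and Top2a, topoisomerase of dividing cells, from 29.1, 31.0 and 31.0 to 17.1, 21.8 and 17.9 (change -0.66, SE 0.12). Pcna was not called (14.296 ± 1.70 and 12.6 ± 3.78). The count was 2 with no filter on low genes, 1 without day 14 replicate 2 and 0 without day 14 replicate 3, which ended the calls of Tyms and Top2a. Among 18 stem cell genes 2 rose and 1 fell, close to the shares over all genes (9.81% and 6.29%). Lgr5, the crypt stem cell receptor, was not called at 3.595, 4.34 and 4.02 and then 2.64, 2.35 and 3.14 (adjusted p = 0.054).

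Of 13 mitochondrially encoded messenger genes, 11 rose and none fell, median 2.03. mt-Cytb, cytochrome b, was at 1568, 1207 and 2639 and then at 6351, 8478 and 9601 (change 2.23, SE 0.35, adjusted p = 0.0098), and mt-Nd1, a subunit of complex I, at 1212, 865 and 1773 and then 4374, 6406 and 6421. With the B6 dam the median change of the 13 was -0.01. For mt-Nd1 the difference between the dams was 2.11 and did not pass (adjusted p = 0.18). The count depended on the setting: 2 members rose on deposited values, 6 with quantile normalisation and 4 with no filter on low genes. Of 31 nuclear genes of the respiratory chain, 11 rose, with a median of 0.48. Sdhb, a subunit of complex II, rose from 28.3, 25.4 and 27.9 to 45.6, 47.1 and 43.6, and Cycs, cytochrome c, from 9.53 ± 1.73 to 21.0 ± 1.66. That count was 2 without day 14 replicate 2 or 3, 3 without day 24 replicate 2, 6 without day 24 replicate 3, 2 with quantile normalisation and 0 on deposited values.

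Clock genes changed in both directions, 3 of 16 rising and 4 falling. Per2 and Per1, repressors of the circadian loop, fell from 7.21, 8.49 and 7.76 to 1.90, 2.00 and 1.70 (change -1.62, SE 0.10, adjusted p = 0.00054) and from 5.22, 4.51 and 3.47 to 1.37, 1.27 and 1.6003. Arntl, which encodes the activator BMAL1, rose from 2.42 ± 0.378 to 5.18 ± 0.786. Per2 fell also with the B6 dam, by a change of -1.72. The hour at which tissue was taken is not given in the sources used here. Without day 14 replicate 3 the count of rising clock genes was 1. Of 14 tested stress genes (immediate early and heat shock), 2 rose, 1 fell and 11 were not called, median -0.21. The near-identical heat shock genes Hspa1a and Hspa1b rose from 0.0408 ± 0.00388 to 2.80 ± 0.477 and from 0.457 ± 0.334 to 9.22 ± 1.396. Their reads may be shared.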

How the data were processed

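RNA was measured in sorted small-intestinal epithelial cells, 3 libraries at each age. The authors deposited 1 table of TPM values for 53278 gene symbols. The submitters' processing notes name the build mm10 and the tools Bowtie2, Subread and DESeq2; versions and settings are not given in the sources used here. TPM keeps no depth, but the steps of the low values gave whole reads for 93.6% of values (tolerance 0.01 reads or a relative 1e-04) with GENCODE exon lengths, and these reads served only depth and an alternative limma-voom fit.

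TPM were divided by median-of-ratios factors and tested as log2(scaled TPM + 1) with limma 3.58.1 (trend) in R 4.3.3, with Benjamini-Hochberg adjustment over 13971 genes that reached a TPM of 1 in 2 or more libraries. The 11-library fit of both dams held the interaction and the B6 dam contrast. Samples were grouped by title. The members and the 46 gene lists were chosen with earlier results of these data known. Named genes were the 15 largest rises and falls with separated groups and a mean of at least 10, the first 6 members and the 6 lowest p of each list, check genes, and the 15 lowest p of the difference between dams. The fit was tested on simulated data. Alternatives were other scalings, filters, pseudocounts, weights, fits and single omissions. Promoters came from RefSeq on GRCm38.p6, matched by symbol for 8689 tested genes. A few named genes are not reported here.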

Additional observations from a re-analysis of the deposited data

Results flagged for a closer look

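For 21 of the named genes the change from day 14 to day 24 differed between the dams, by the interaction term of limma over 11 libraries with an adjusted p below 0.05. Values are the log2 change with the IgA -/- dam minus that with the B6 dam, and both dams' levels were measured on the same scale.

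Gut hormone and granule genes made up most of these named genes. Named genes were chosen partly by a low p of this same difference and partly from gene lists. That majority therefore follows in part from the choice. Over all tested genes the difference passed for 37, of which 12 were members of the enteroendocrine list. The difference was -4.63 for Nts, -4.10 for Gip, -3.89 for Pyy, -3.43 for Gcg, -3.33 for Sct and -2.96 for Cck. Granule proteins gave -2.97 for Chgb and -2.92 for Chga. The processing enzyme Pcsk1 and the chaperones Pcsk1n and Scg5 gave -1.79, -1.80 and -1.75. Tph1, which starts serotonin synthesis, gave -2.09, and Lmx1a, a transcription factor of serotonin cells, -1.38.

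Other differences were -4.42 for Reg3b, -2.36 for Afp, -2.08 for Rbp4, -1.76 for Fabp5, -1.82 for the tuft cell gene Sh2d6 and -1.31 for Vim. Gm25482 gave -2.80 and was at 0 in the 3 day 24 libraries of the IgA -/- dam. The predicted gene Gm10800 gave 4.16, with 4.52, 6.42 and 7.04 scaled TPM at day 14 and 52.3, 77.6 and 97.6 at day 24 under the IgA -/- dam. Gcg, Cck, Pcsk1, Sh2d6 and Vim were called as rising with the B6 dam and were not called with the IgA -/- dam.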

How the results depend on the processing

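Of 227 named genes called with the IgA -/- dam, 141 kept direction and call with each library left out. Under the other alternatives 72 did so wherever they were tested. An alternative that did not test a gene was passed over, as for mitochondrial genes where these were removed, so 72 is an upper bound. The 6-library count of 2250 became 1410 in the fit of 11 libraries, 1392 with no filter and 12233 on deposited values. Rising genes (1371) became 725 with 11 libraries, 902 at TPM of at least 5, 132 as deposited and 909 without mitochondrial and the 50 highest genes. Falling genes (879) became 1326 with all 17 libraries, 12101 as deposited, 468 with no filter and 1558 without mitochondrial and the 50 highest genes. The 37 differences between dams became 21 at TPM of at least 5, 245 as deposited and 18 with library weights. The 5 higher became 8 with 17 libraries, 3 as deposited, 2 with weights and 3 without mitochondrial and the 50 highest genes, and the 32 lower became 17 at TPM of at least 5, 242 as deposited and 16 with weights. The B6 dam count of 1261 became 815 at TPM of at least 5, 2053 with 17 libraries and 450 with weights. Its rises (698) became 427, 1134 and 257 under those settings and 207 as deposited, and its falls (563) became 919 with 17 libraries and 193 with weights. The cause was not tested, apart from fewer genes tested at the higher filter.

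With 1 library left out, the IgA -/- dam counts ranged from 891 to 2663 called, 561 to 1515 higher and 330 to 1148 lower. Differences between dams ranged from 15 to 69, with 0 to 28 higher and 14 to 58 lower. The B6 dam counts ranged from 583 to 2892, with 290 to 1897 higher and 285 to 995 lower, 2892 being without day 24 replicate 1, which leaves 1 library whose spread is taken from the other groups.

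Samples of the same number did not deviate together (correlations -0.045, -0.068 and -0.014). With the number as a replicate block, 1167 genes were called with the IgA -/- dam (788 higher, 379 lower), 8 differed between dams (2 higher, 6 lower) and 598 were called with the B6 dam (300 higher, 298 lower).

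On deposited values, where the median gene changed by -1.05, positive changes became negative for Amn (-1.16), Arntl (-0.30), B2m (-0.85), Cdx1 (-1.39), Cdx2 (-1.44), Ctsd (-0.88), Cycs (-0.32), Cyp51 (-0.31), Dgat1 (-0.24), Dpp4 (-0.093), Epcam (-1.22), Fut2 (-0.056), Hnf4g (-0.22), Ifit1 (-0.29), Irf9 (-0.69), Klf4 (-0.14), Lyz1 (-0.081), Msmo1 (-0.20), Muc2 (-0.96), Mvk (-0.20), Myo1a (-0.046), Nfkbia (-0.57), Otc (-0.90), Pigr (-0.32), Plcg2 (-0.035), Sdhb (-0.73), St3gal4 (-0.0049), Stat2 (-0.32), Vil1 (-0.17) and Vim (-0.60).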
